A study of Mus musculus with 7 samples.

Results

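A family of 8 complement genes was followed in whole colon tumors of 7 mice: *C3*, *C4b*, *C2*, *Cfb*, *Cfd*, *Cfi*, *Cd55* and *Cd59a*. They are the 8 rows, among 43346 in the table, whose Ensembl identifier carries 1 of these symbols, and they were picked as a family and not by their values. The study modelled clonal hematopoiesis, in which blood cells carry a mutation, in mice that then developed colitis-associated cancer. Wild-type recipients, C57BL6/J per the labels and a congenic CD45.1 strain per the methods, had received bone marrow (BM) that was either Dnmt3a(+/-), the graft of 4 tumors, or Dnmt3a(+/+), the graft of 3 tumors. *Dnmt3a* encodes a DNA methyltransferase. Per the methods, donors of both groups carried Mx1-Cre and were given poly(I:C), which induces an interferon response as well as Cre, so both grafts share this exposure; recipients were lethally irradiated before transplantation. Every recipient was then injected with azoxymethane (AOM, 10 mg/kg), a colon carcinogen, and drank 3% dextran sulfate sodium (DSS) in 3 cycles of 1 week, with 2 weeks between them. The labels place transplantation at 8 weeks of age and the methods at a different age. The tumor epithelium and stroma of these mice come from the recipient, which carries no *Dnmt3a* deletion, and the graft supplies the blood cells. The tumors came from 2 transplantation experiments: BMT18 gave Dnmt3a(+/+) BM replicates 1 and 2 and Dnmt3a(+/-) BM replicates 1 and 2, while BMT8 gave Dnmt3a(+/+) BM replicate 3 and Dnmt3a(+/-) BM replicates 3 and 4.

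Complement is a cascade of plasma and membrane proteins in which proteases cut the next component in turn. The classical and lectin routes cut C4 and C2, whose fragments join into a C3 convertase, and the alternative route builds its own convertase from C3 and factor B (*Cfb*) after factor D (*Cfd*) has cut factor B. Factor I (*Cfi*) cuts C3b and C4b with the help of cofactors and so ends convertase activity, CD55 (decay-accelerating factor) dissociates convertases on the cell surface, and CD59 blocks the membrane attack complex. The liver makes most plasma complement, while epithelium, macrophages, fibroblasts and endothelium in tissues make components locally; *C3*, *Cfb*, *C2* and *C4* genes are known to respond to inflammatory cytokines, among them interferon gamma.

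Of the 8 genes, 4 encode serine proteases. A stretch of 45 coding bases around the codon of the catalytic serine is shown for each, because this site is what factor I, which ends the cascade, has in common with the proteases that drive it; capitals mark the serine codon. The sequences are from GENCODE M21 transcripts on GRCm38, on the coding strand, and a coordinate span longer than the stretch includes an intron.
Cfi, chr3:129874935-129874979 (+), exon 14, codon 545 of 603: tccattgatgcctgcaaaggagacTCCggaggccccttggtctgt
Cfd, chr10:79892232-79892451 (+), exons 4 and 5, codon 209 of 259: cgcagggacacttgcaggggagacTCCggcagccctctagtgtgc
Cfb, chr17:34856904-34857022 (-), exons 16 and 17, codon 698 of 763: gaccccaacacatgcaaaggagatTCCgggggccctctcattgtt
C2, chr17:34863203-34863363 (-), exons 16 and 17, codon 689 of 760: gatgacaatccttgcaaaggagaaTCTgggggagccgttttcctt
Of the 45 bases, *Cfd* shares 29 with *Cfi*, *Cfb* 27 and *C2* 26, at the same positions. The residues around the serine are GDSGG in *Cfi* and *Cfb*, GDSGS in *Cfd* and GESGG in *C2*.

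How far a count can be assigned to 1 gene depends on such similarity. *C4b* has a near copy, *C4a*, on the same chromosome (96.1% identical over 5367 aligned bases), and the 60-base stretch of exon 21 in which they differ most is shown with its 13 differing bases in capitals.
C4b, chr17:34735430-34735489 (-): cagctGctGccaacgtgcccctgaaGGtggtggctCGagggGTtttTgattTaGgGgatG
C4a, chr17:34816086-34816145 (-): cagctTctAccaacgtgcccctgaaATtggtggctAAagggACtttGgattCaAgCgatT
Of all 100-base windows of the longest *C4b* transcript, 16.5% also occur in *C4a*. For *Cfb* and *C2*, which are neighbors, 81.0% and 53.2% of windows also occur in Gm20547, an annotated gene on chr17 from 34856412 to 34882042 whose transcripts join parts of both; it was listed with 0 to 0.234 CPM (a gene's counts relative to the tumor's total, with TMM library sizes) in the 7 tumors, so the division of those reads put nearly all of them on *Cfb* and *C2*. For *Cd55*, 7.03% of windows occur in *Cd55b* or in the antisense gene Gm16083 (0 to 0.0609 CPM), and for *Cd59a* 0.293% occur in *Cd59b*. No window of *C3*, *Cfd* or *Cfi* occurred in another gene.

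Total estimated counts ranged from 38472738 to 64314999 per tumor. *Dnmt3a* itself was at 20.2 to 24.2 CPM with Dnmt3a(+/+) BM and 22.0 to 43.0 CPM with Dnmt3a(+/-) BM; as the deletion is in the graft alone, a whole tumor is a weak check of it. The tissue label holds: all 12 colon epithelium genes listed (among them *Epcam* and *Krt20*) passed the count filter. Dnmt3a(+/-) BM replicate 2 stood apart by its summed CPM of 10 endothelial, 12 fibroblast and 12 macrophage genes. These sums were 178, 1516 and 611, against at most 80.7, 646 and 155 in the other 6. Dnmt3a(+/+) BM replicate 3 stood apart by 8 smooth muscle genes, with a summed CPM of 25.4 against 265 to 1279 in the other 6. Its epithelial and interferon gamma target sums were the highest. Where leaving out Dnmt3a(+/-) BM replicate 2 turns a direction or moves a value by over 1.5 times, the value without that tumor is given.

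Per kilobase of exon, *Cfb* was the most abundant of the 8 genes, with a mean of 57.1 CPM per kb over the 7 tumors (range 45.6 to 86.3). *Cd55* followed at 25.2 (9.01 to 48.9), then *C3* at 8.26 (3.39 to 20.2), *C2* at 7.04 (1.75 to 22.0) and *Cfi* at 5.08 (0.931 to 12.9). *C4b* at 1.87 (0.731 to 5.14), *Cd59a* at 0.934 (0.236 to 1.55) and *Cfd* at 0.210 (0 to 0.866) were the least abundant. The alternative route's factor B thus had the highest transcript level, while factor D, the protease that activates it, had the lowest. The ranges of all neighbors in this order overlapped. Within single tumors, *Cfb* was above *Cd55* in 7 of 7 and *Cd59a* above *Cfd* in 7 of 7, but *C3* was above *C2* in 5 of 7 and *C2* above *Cfi* in 4 of 7, so the middle of the order was not the same from tumor to tumor. With the length of the longest transcript in place of the exon union, *C2* (10.3) came before *C3* (8.27), and *Cd55* rose to 39.1 and kept its place.

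**Figure D1:**
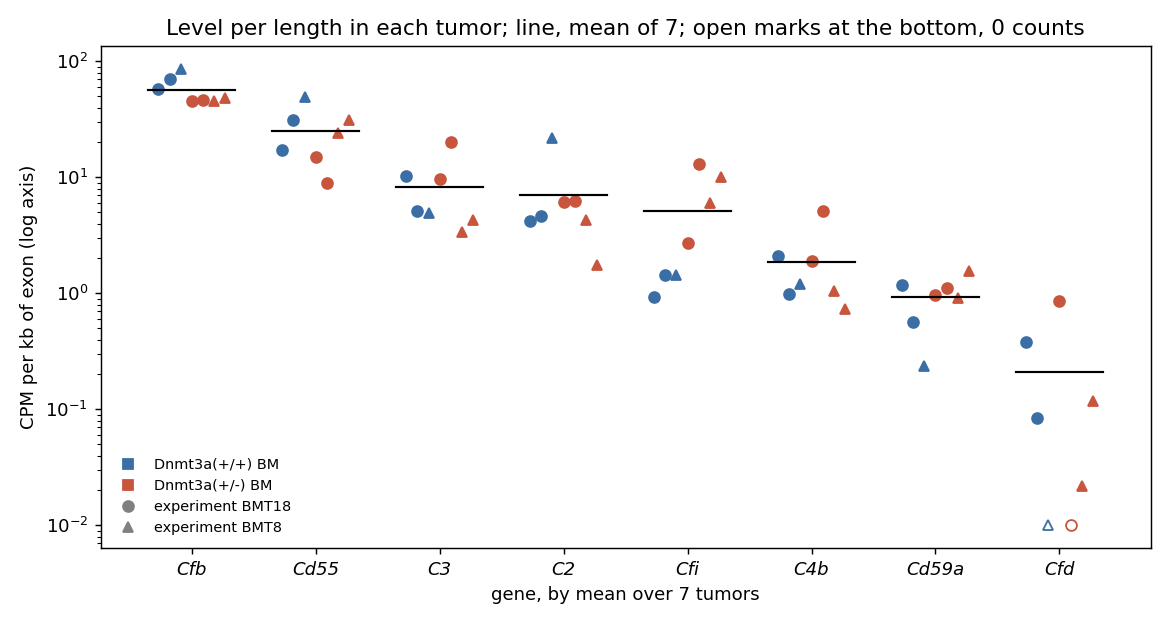
CPM per kilobase of exon (log axis) of the 8 complement genes in each of 7 tumors, in the order of their means (lines); color gives the graft and shape the experiment. *Cfb* lies between 45.6 and 86.3 in every tumor, and *Cfd* at or below 0.866, with open marks for the 2 tumors with 0 counts.

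The comparison between grafts asks whether loss of 1 *Dnmt3a* allele in blood cells went with a difference in the complement transcripts of the tumor. Factor I transcripts were higher and factor B transcripts lower with Dnmt3a(+/-) BM, and these were the members whose groups did not overlap (for factor B they did by library size alone). Neither passed the threshold after adjustment: edgeR called 0 of the 7 members it tested and 0 of 15810 genes, 1744 of which had an unadjusted p under 0.05 (0% of genes tested were called; adjusted p under 0.05 and absolute log2 fold change over 1). At an unadjusted p under 0.05, edgeR had 1 member higher, *Cfi*, where 5.83% of genes tested were, and 1 lower, *Cfb*, where 5.2% were. Groups did not overlap for the same 2 genes, against 6.12% of genes tested with higher and 6.32% with lower values. DESeq2 called 1 member, *Cfi*, and 300 of 16056 genes, with 1.51% of genes called higher. The fitted value was above 0 for 4 members and below 0 for 3, with a median log2 fold change of 0.48 beside 0.00 (0.0025) over all genes tested. Without Dnmt3a(+/-) BM replicate 2, 2 members were above 0 and 5 below, with a median of -0.20. When library sizes alone set the scale, the median over all genes was 0.21, so values scaled by TMM lie lower by about this much. In whole tumors, fewer cells of a type and less RNA per cell cannot be told apart.

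**Figure D2:**
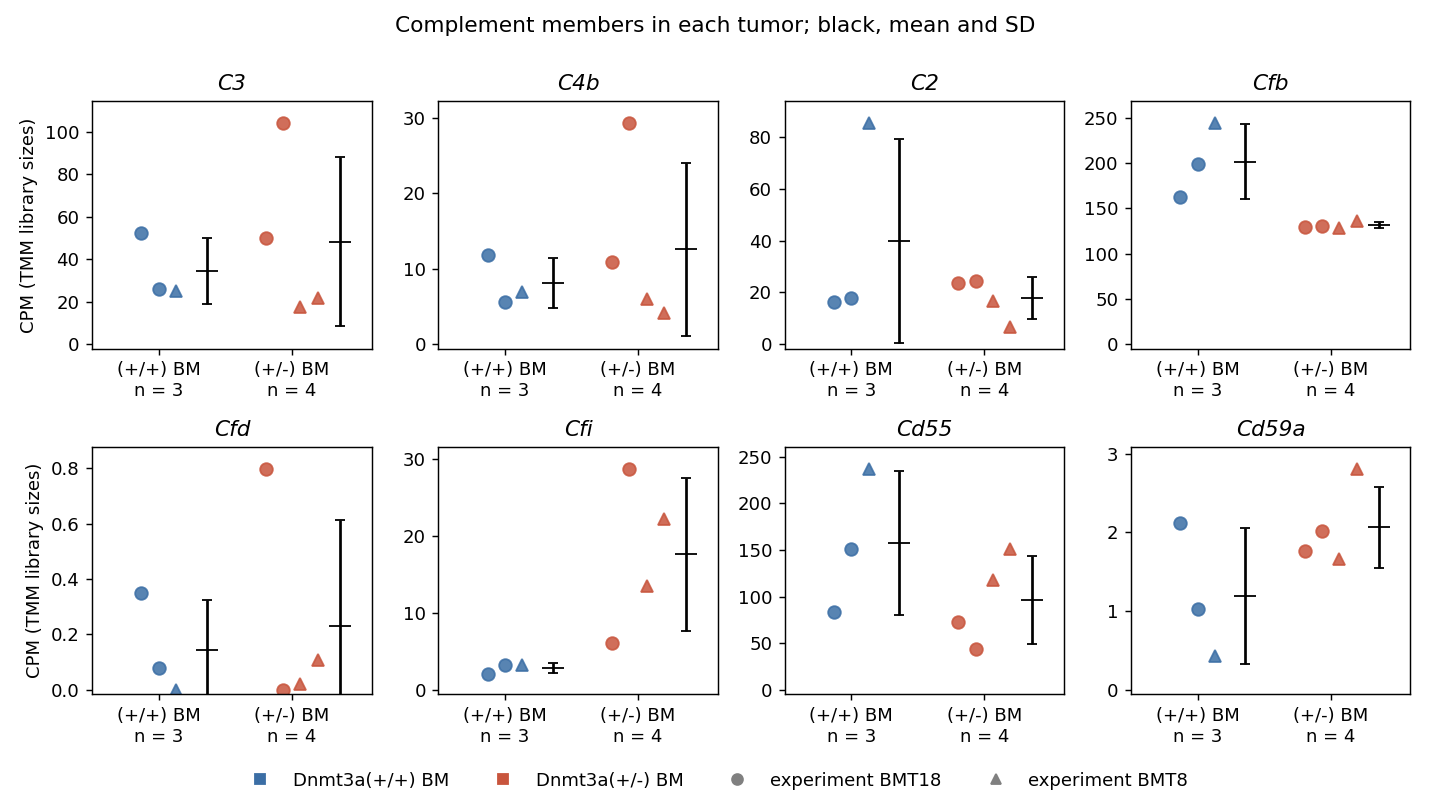
CPM of each complement gene in each tumor by graft (linear axes from 0; circles BMT18, triangles BMT8; black, mean and SD, drawn down to 0 for *Cfd*). *Cfi* is above 6 CPM in the 4 tumors with Dnmt3a(+/-) BM and below 3.2 in the other 3, and the Dnmt3a(+/+) BM tumor with the highest *C2* is 1 triangle at 85.3.

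*Cfi* (chr3:129835884-129875332) encodes the serine protease that inactivates C3b and C4b. Its CPM was 2.07, 3.20 and 3.18 in Dnmt3a(+/+) BM replicates 1 to 3, and 6.06, 28.7, 13.5 and 22.2 in Dnmt3a(+/-) BM replicates 1 to 4. The 3 tumors with Dnmt3a(+/+) BM lay close together, and the lowest with Dnmt3a(+/-) BM was 1.89 times the highest of them. Means were 2.82 ± 0.648 (SD, n = 3) and 17.6 ± 9.93 (SD, n = 4). The log2 fold change was 2.64, or 6.25-fold, with a standard error of 0.54 and a 95% interval of 1.38 to 3.91. edgeR gave it an unadjusted p of 0.00138 and an adjusted p of 0.361, the lowest adjusted p in the table, which other genes share. DESeq2, with a log2 fold change of 2.65, gave an adjusted p of 0.000168. An exact permutation test of log2 CPM over the 35 splits, two-sided, gave p = 0.0571; the design allows no p below 0.0286. Leaving out 1 tumor at a time, the log2 fold change stayed between 2.34 and 2.95, edgeR's unadjusted p between 9.09e-05 and 0.00720, and the adjusted p of DESeq2 at or below 0.00663. The difference was as large in BMT18 alone (2.74) as in all tumors, and it was 2.34 without Dnmt3a(+/-) BM replicate 2.

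Endothelial genes moved in the same tumors. The summed CPM of the 10 endothelial genes was 21.6, 19.6 and 35.8 with Dnmt3a(+/+) BM and 37.6, 178, 53.6 and 80.7 with Dnmt3a(+/-) BM, and did not overlap between the groups. All 10 had a fitted value above 0, 7 of them at an unadjusted p under 0.05 in edgeR (*Pecam1*, *Cdh5*, *Kdr*, *Flt1*, *Tek*, *Tie1* and *Esam*), and their median log2 fold change was 1.74, or 1.202 without Dnmt3a(+/-) BM replicate 2, where 5 of the 10 had an unadjusted p under 0.05. Within the 4 tumors with Dnmt3a(+/-) BM, the order of *Cfi* was also that of the endothelial sum. With Dnmt3a(+/+) BM it was not, as replicate 2 had the highest *Cfi* (3.20 CPM) and the lowest endothelial sum (19.6 CPM). *Alb*, a hepatocyte gene, had the *Cfi* profile too, at 0.725 to 1.38 CPM with Dnmt3a(+/+) BM and 2.02 to 6.78 CPM with Dnmt3a(+/-) BM. Of other hepatocyte genes, *Fga*, *Fgb* and *Fgg*, the fibrinogen chains, had 0 counts in all 7 tumors, and the sum of the 8 hepatocyte genes was 14.6 to 32.2 CPM with Dnmt3a(+/+) BM and 11.2 to 26.2 CPM with Dnmt3a(+/-) BM. The part of endothelial RNA in the *Cfi* difference was not tested.

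**Figure D3:**
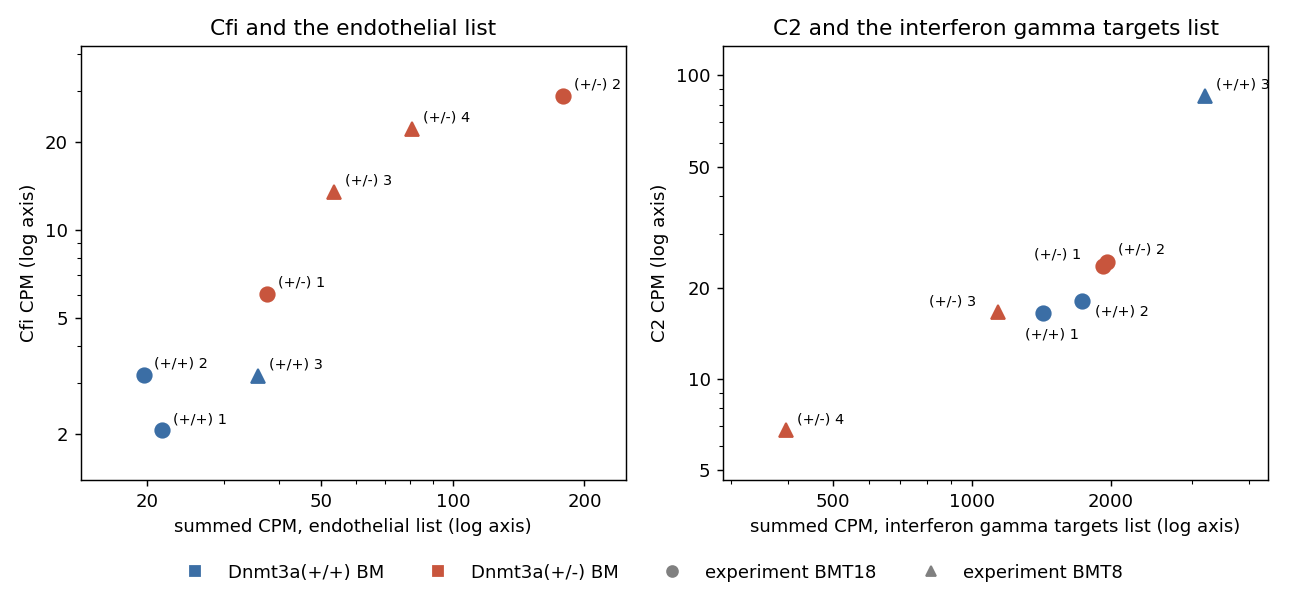
CPM of *Cfi* against the summed CPM of 10 endothelial genes (left) and CPM of *C2* against the summed CPM of 15 interferon gamma targets (right) in 7 tumors, log axes, labelled by graft and replicate. The 4 Dnmt3a(+/-) BM tumors lie above the others on both axes at left; at right the highest and lowest tumors on both axes are Dnmt3a(+/+) BM replicate 3 and Dnmt3a(+/-) BM replicate 4.

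*Cfb* (chr17:34856374-34862518) encodes factor B, the protease of the alternative route's convertase. Its CPM was 162, 198 and 244 with Dnmt3a(+/+) BM and 129, 131, 129 and 136 with Dnmt3a(+/-) BM. Every tumor with Dnmt3a(+/-) BM was below every tumor with Dnmt3a(+/+) BM, and the former group had a narrow spread, with an SD of 3.26 CPM around 131.2. The other group had a mean of 201.4 ± 41.0 (SD, n = 3). The log2 fold change was -0.62 with a standard error of 0.16 and a 95% interval of -0.9997 to -0.24, a 1.53-fold difference, so it is under the fold threshold of a call. edgeR gave it an unadjusted p of 0.00595 and an adjusted p of 0.361; the adjusted p of DESeq2 was 0.0998, and 0.0276 to 0.494 with 1 tumor left out. The exact permutation test gave p = 0.0286, two-sided, the smallest that 35 splits can give. With 1 tumor left out, the log2 fold change was between -0.76 and -0.46, and the unadjusted p of edgeR at most 0.0200. By library size alone the value was -0.40 (unadjusted p = 0.0451 from edgeR), and the groups then overlapped, since Dnmt3a(+/-) BM replicate 2 stood at 157.7 CPM and Dnmt3a(+/+) BM replicate 1 at 149.6 CPM of total counts. *Cfi* and *Cfb* were the members at an unadjusted p under 0.05 in each of these 7 fits, joined by *Cd59a* (higher) without Dnmt3a(+/+) BM replicate 1.

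*C2* (chr17:34862604-34898265), the classical route's counterpart and neighbor of *Cfb*, differed between tumors mainly within BMT8. Its CPM was 16.4 and 18.01 with Dnmt3a(+/+) BM and 23.6 and 24.3 with Dnmt3a(+/-) BM in BMT18. In BMT8, it was 85.3 in the tumor with Dnmt3a(+/+) BM and 16.6 and 6.78 in the tumors with Dnmt3a(+/-) BM. The groups were thus ordered in opposite ways in the experiments. Over all tumors the log2 fold change was -1.16 with a standard error of 0.66 (95% interval -2.71 to 0.38, edgeR adjusted p = 0.549), but 0.49 with a standard error of 0.19 in BMT18 alone and 0.05 without Dnmt3a(+/+) BM replicate 3. A test of this difference between experiments, chosen after the values had been seen, gave an interaction of 3.34 on the log2 scale with a standard error of 0.64 (edgeR, unadjusted p = 0.00233, adjusted p = 1.00 over all genes, where no gene was called). BMT8 holds 1 tumor with Dnmt3a(+/+) BM, so its side of the comparison rests on that tumor.

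Interferon gamma targets followed *C2* from tumor to tumor. The summed CPM of 15 targets was 1430, 1734 and 3207 with Dnmt3a(+/+) BM and 1922, 1964, 1140 and 396 with Dnmt3a(+/-) BM, so the highest and the lowest tumor were those of *C2*. Of the 15 targets, 12 had a fitted value below 0 and 3 above, with 3 at an unadjusted p under 0.05 in edgeR, all lower (*Irf1*, *Psmb8* and *Psmb9*), and a median log2 fold change of -0.50; by library size alone 9 were below 0 and 6 above, with a median of -0.24. Without Dnmt3a(+/-) BM replicate 2, 15 of the 15 were below 0, 1 of them at an unadjusted p under 0.05, with a median of -0.84. *Irf1*, a transcription factor induced by interferon gamma, was at 221, 271 and 396 CPM with Dnmt3a(+/+) BM and 206, 186, 209 and 122 CPM with Dnmt3a(+/-) BM. *Ciita*, the MHC class II transactivator, was highest in Dnmt3a(+/+) BM replicate 3 at 19.7 CPM and lowest in Dnmt3a(+/-) BM replicate 4 at 0.297. Whether this programme accounts for *C2* was not tested.

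*C3* (chr17:57203970-57228136), the component on which all routes converge, and *C4b* (chr17:34728380-34743882) did not separate the grafts. *C3* was at 52.6, 26.1 and 25.1 CPM with Dnmt3a(+/+) BM and 50.1, 104.1, 17.4 and 21.9 CPM with Dnmt3a(+/-) BM. *C4b* was at 11.8, 5.66 and 6.91 CPM and at 10.9, 29.3, 6.01 and 4.16 CPM. For both genes the highest tumor was Dnmt3a(+/-) BM replicate 2, next came replicate 1 of each graft, and the ranges of the groups overlapped. The log2 fold changes of 0.48 (standard error 0.63, edgeR adjusted p = 0.823) and 0.63 (0.67, adjusted p = 0.771) turned to -0.20 and -0.19 without Dnmt3a(+/-) BM replicate 2. Their 95% intervals, -0.98 to 1.95 and -0.93 to 2.19, leave room for a difference of either sign. Macrophage and fibroblast genes were also highest in that tumor, with sums of 611 and 1516 CPM. So were the leukocyte (176 CPM), endothelial (178), B cell and plasma cell (202) and NF-kB and acute phase (1589) lists. The epithelial, neutrophil and adipocyte sums were lowest there. The mesothelial sum was too, but its list shares keratin genes with the epithelial list, so it is no separate reading. The part of any of these in its *C3* and *C4b* level was not tested. *C4a*, which encodes a C4 isoform with little activity in the classical route, made up 1.78% to 25.6% of the 2 genes' CPM and was at 0.215 to 0.581 CPM with Dnmt3a(+/+) BM and 0.274 to 1.43 CPM with Dnmt3a(+/-) BM (log2 fold change 1.49, edgeR unadjusted p = 0.0567).

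*Cfd* (chr10:79890853-79892655), also known as adipsin and made chiefly by fat cells, was close to absent. It had 13, 5 and 0 counts with Dnmt3a(+/+) BM and 32, 0, 1 and 4 counts with Dnmt3a(+/-) BM, and it did not pass the filter on low counts. A count of 0 allows up to 0.0917 CPM in Dnmt3a(+/+) BM replicate 3 and 0.0611 CPM in Dnmt3a(+/-) BM replicate 2, counting error alone. The tumors with most *Cfd* were replicate 1 of each graft, at 0.349 and 0.798 CPM. *Adipoq*, which encodes the fat cell hormone adiponectin, had its 2 values above 0 in the same tumors, at 0.161 and 0.224 CPM. Of the 10 fat cell genes listed, 5 passed the count filter, and *Adipoq* was not among them. The summed CPM of all 10, a weak measure of fat cells for that reason, did not follow *Cfd*. It was 41.2 and 43.1 in those tumors, within a range of 38.2 to 72.9. The highest sum was in Dnmt3a(+/+) BM replicate 3, which had 0 counts of *Cfd*. A difference between grafts in *Cfd* was not detectable at this depth.

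The membrane regulators went in different directions. *Cd55* (chr1:130439027-130462744) was at 83.7, 151.2 and 237 CPM with Dnmt3a(+/+) BM and 73.1, 43.7, 117 and 151.4 CPM with Dnmt3a(+/-) BM. In each experiment the tumors with Dnmt3a(+/-) BM were below those with Dnmt3a(+/+) BM, while BMT8 was higher than BMT18 within each graft, so the groups overlapped when pooled. The log2 fold change was -0.71 with a standard error of 0.47 (edgeR adjusted p = 0.605). Without Dnmt3a(+/+) BM replicate 3 it was -0.29 and without Dnmt3a(+/-) BM replicate 2 it was -0.44. Adding the experiment as a covariate gave -0.93 with a standard error of 0.27 (edgeR unadjusted p = 0.0122, adjusted p = 0.266), and in BMT18 alone -0.9997. The summed CPM of 12 epithelial genes was highest in Dnmt3a(+/+) BM replicate 3 (37687 CPM) and lowest in Dnmt3a(+/-) BM replicate 2 (10352 CPM), the tumors with the highest and lowest *Cd55*; its part in the *Cd55* values was not tested. *Cd59a* (chr2:104095801-104115354) was at 2.12, 1.03 and 0.428 CPM with Dnmt3a(+/+) BM and 1.77, 2.02, 1.66 and 2.81 CPM with Dnmt3a(+/-) BM. The groups overlapped through Dnmt3a(+/+) BM replicate 1 alone, and the log2 fold change was 0.79 with a standard error of 0.56 (edgeR adjusted p = 0.6249). Without that tumor it was 1.48, without Dnmt3a(+/+) BM replicate 3 it was 0.39, and in BMT18 alone it was 0.28. Of the paralogs, *Cd55b* was at 0.0204 to 0.421 CPM and *Cd59b* at 0 to 0.183 CPM over the 7 tumors.

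**Figure D4:**
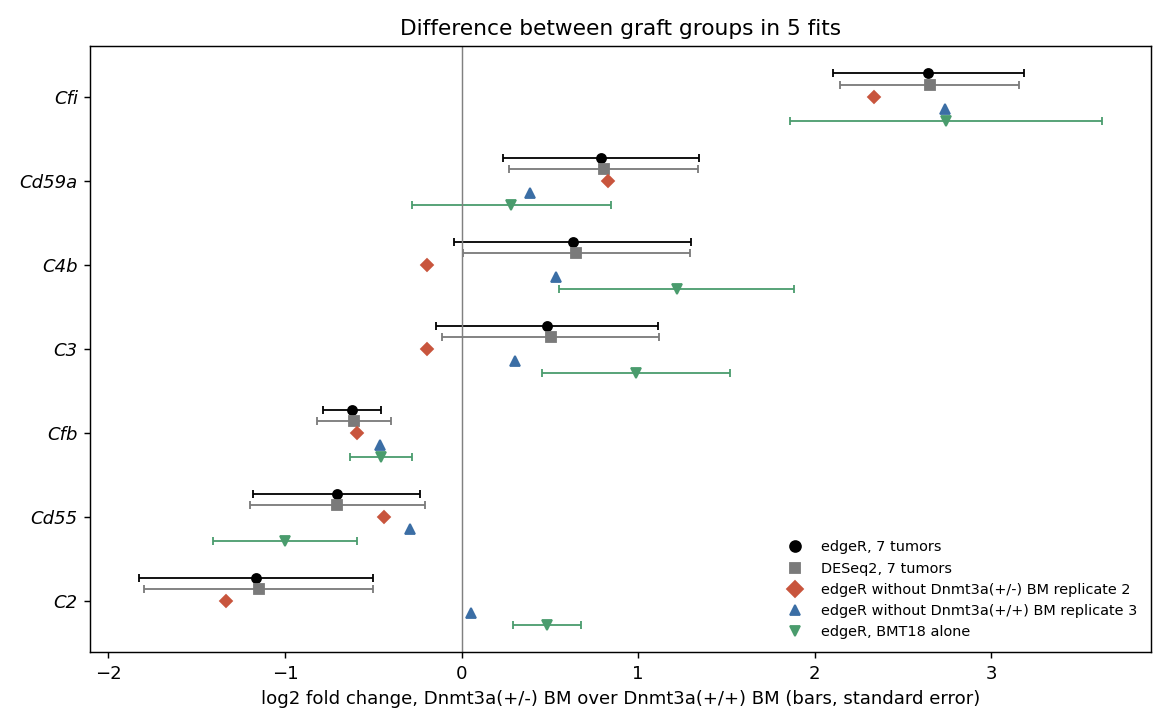
Log2 fold change of the 7 tested members, Dnmt3a(+/-) BM over Dnmt3a(+/+) BM, in 5 fits; bars are standard errors, drawn for the fits with 7 tumors and for BMT18 alone. *Cfi* and *Cfb* keep their side of 0 in all 5 fits, *C3* and *C4b* cross it without Dnmt3a(+/-) BM replicate 2 (-0.20 and -0.19), and *C2* crosses it without Dnmt3a(+/+) BM replicate 3 (0.05) and in BMT18 alone (0.49).

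Between the experiments, no member passed the threshold after adjustment. In the fit with both terms, the BMT18 minus BMT8 value of *C3* was 1.42 on the log2 scale (standard error 0.43, edgeR unadjusted p = 0.0140, adjusted p = 0.197), and that of *Cd55* -1.13 (standard error 0.27, unadjusted p = 0.00499, adjusted p = 0.191). These were the 2 of 7 members at an unadjusted p under 0.05, 1 in each direction, beside 8.59% of genes tested higher and 10.8% lower in BMT18, a count near that background. *C4b* followed at 1.29 with an edgeR unadjusted p of 0.0510. The values for *Cfi* (-0.13, standard error 0.53) and *Cfb* (-0.19, standard error 0.15) were smaller than their differences between grafts, which were 2.63 and -0.64 in that fit.

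Of 53 complement genes listed, members included, 31 passed the count filter. Between grafts 21 had a fitted value above 0 and 10 below, with 2 at an unadjusted p under 0.05 in each direction and 0 called by edgeR, where 5.83% and 5.2% of all genes tested had such a p, a share near the background; by library size alone the split was 23 to 8. The median log2 fold change was 0.54. Without Dnmt3a(+/-) BM replicate 2 it was -0.02, with 15 above 0 and 15 below among the 30 still tested. Among the initiators (8 of 16 tested, median 0.56, and 0.05 without Dnmt3a(+/-) BM replicate 2), *C1s2*, which encodes a C1s protease, was the gene at an unadjusted p under 0.05, at 0.0312 to 0.107 CPM with Dnmt3a(+/+) BM and 0.183 to 0.270 CPM with Dnmt3a(+/-) BM (log2 fold change 1.62, edgeR unadjusted p = 0.0230). *C1qa*, *C1qb* and *C1qc*, the macrophage-made chains of C1q, were highest in Dnmt3a(+/-) BM replicate 2, at 58.6, 58.0 and 39.5 CPM, against at most 25.5 CPM for any of them elsewhere. Of the central components (6 of 8 tested), *Cfp*, properdin, which stabilizes the alternative convertase, was at 2.23 to 4.67 CPM with Dnmt3a(+/+) BM and 3.37 to 14.2 CPM with Dnmt3a(+/-) BM. Its 14.2 CPM was that of Dnmt3a(+/-) BM replicate 2, and without this tumor its log2 fold change went from 0.87 to 0.23. The median of the central components went from 0.56 to -0.20 without the same tumor. *Hc*, which encodes C5, was at 0.0270 to 0.324 CPM and was not tested. Of the 6 terminal components, *C8g* alone passed the filter, at 0.245 to 1.11 CPM over all tumors.

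All 5 tested soluble regulators had a fitted value above 0, and *Cfi* was the one at an unadjusted p under 0.05. Without Dnmt3a(+/-) BM replicate 2, 4 were above 0 and 1, *C4bp*, below (-0.22), *Serping1* was at 0.0048, and the list's median went from 0.94 to 0.14. *Clu*, clusterin, which binds the terminal complex, was at 55.6, 144 and 168 CPM with Dnmt3a(+/+) BM and 92.7, 361, 305 and 244 CPM with Dnmt3a(+/-) BM, so that replicate 1 was the tumor that overlapped (log2 fold change 1.03, edgeR unadjusted p = 0.0854). *Serping1*, the C1 inhibitor, was at 58.7 CPM in Dnmt3a(+/-) BM replicate 2 and at 7.19 to 19.5 CPM in the other 6 tumors. Of the 5 tested membrane regulators 4 had a fitted value below 0. *Cr1l*, the mouse Crry, a membrane cofactor for factor I, was at 116, 115 and 101 CPM with Dnmt3a(+/+) BM and 89.1, 61.7, 85.7 and 94.3 CPM with Dnmt3a(+/-) BM, without overlap (log2 fold change -0.42, standard error 0.17, edgeR unadjusted p = 0.0452, adjusted p = 0.444). Without Dnmt3a(+/-) BM replicate 2 its value was -0.27, and no tested membrane regulator then had an unadjusted p under 0.05 in edgeR. The 6 tested receptors had a fitted value above 0 (4 of 6 without Dnmt3a(+/-) BM replicate 2) with none at an unadjusted p under 0.05, among them *C3ar1*, the receptor of C3a, at 1.26 to 2.42 CPM and 1.27 to 4.36 CPM; their median fell from 0.59 to 0.13 without Dnmt3a(+/-) BM replicate 2.

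**Figure D5:**
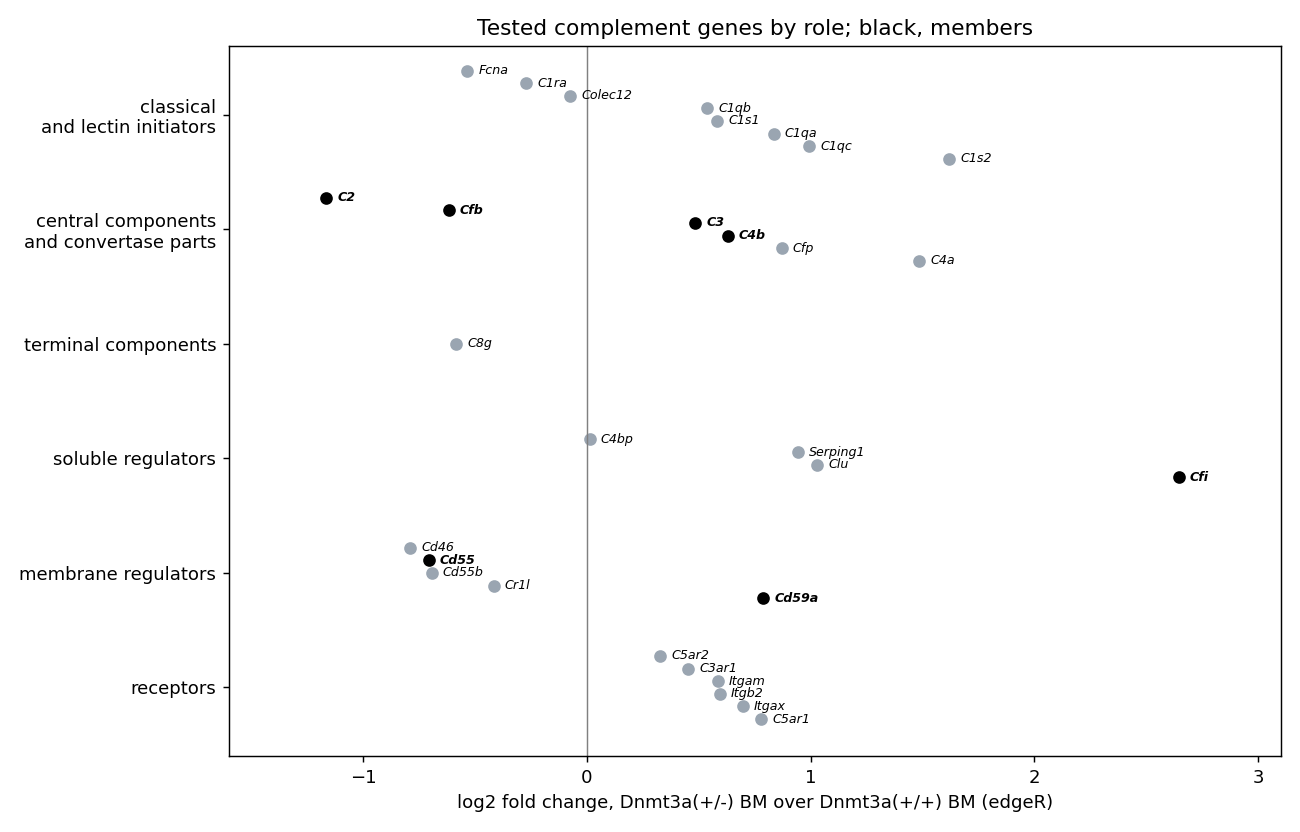
Log2 fold change (edgeR, Dnmt3a(+/-) BM over Dnmt3a(+/+) BM) of tested complement genes in rows by role, with members in black; 1 tested gene is not drawn. *Cfi* at 2.64 has the highest value and *C2* at -1.16 the lowest; soluble regulators and receptors lie above 0 (not all of them without Dnmt3a(+/-) BM replicate 2) and 4 of 5 membrane regulators below.

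The members did not rise and fall as 1 block over the tumors. Described by Pearson's r of log2 CPM over the same 7 tumors, which differ in graft and experiment, *C3* and *C4b* were the pair most alike (r = 0.95), *C2* and *Cfb* reached 0.64, *C3* and *Cfi* 0.12, and *C3* and *Cd55* -0.85. Among 13574 tested genes outside the family, the profiles most like *C3* were *Adora1* (r = 0.995) and *Sec61a2* (0.989), and most like *C4b*, *Icmt* (0.990) and *Fgd3* (0.984). For *C2* these were Gm11131 (0.978) and *Gbp8* (0.9751), an interferon-inducible guanylate-binding protein, and for *Cfb*, *Lrp10* (0.982) and *Cep83* (0.9799). *Cfi* was most like *Alb* (0.989) and *Smpx* (0.986), *Cd55* most like *Ptprd* (0.998) and *Hsf2bp* (0.995), and *Cd59a* most like *Glyctk* (0.969) and *Zgpat* (0.950). For *Cfd*, whose counts are near 0, these were *Car12* (0.994) and *Egfl6* (0.977). These likenesses, the highest of 13574 over 7 tumors, are a description.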

How the data were processed

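RNA from whole tumors was poly(A)-selected and made into libraries with a directional kit, per the labels. The authors trimmed reads with Trimmomatic, aligned them to mm10 (STAR 2.7.3a) and quantified genes (RSEM v1.2.31). Neither the annotation nor the strand setting of RSEM is given in the sources used here. The deposited values are those expected counts, whole numbers without normalization. Rows without a symbol held 0.104% of counts. RSEM divides reads that fit several genes, so levels of *C4b*, *C2*, *Cfb* and *Cd55* depend on that division.

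Symbols and positions were taken from GENCODE M21 (GRCm38, the build of the files). edgeR 4.0.16 in R 4.3.3 was fitted on the whole table (TMM, filterByExpr, quasi-likelihood test, Benjamini-Hochberg adjustment over 15810 genes, no covariate), and DESeq2 1.42.0 was the alternative. Log2 CPM used a prior count of 2. Exact permutation tests were two-sided over 35 splits. Levels per length are CPM per kilobase of the exon union. Both tools were run on simulated counts with the same variability set for every gene. That run checks the code and cannot tell which tool suits these tumors. Other settings were other scalings, no filter, the adjusted p alone, the experiment as covariate, the replicate number as block, BMT18 alone and each tumor left out.

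Genes named are the members, other complement genes at an unadjusted p under 0.05, paralogs, chosen partners (*Cfp*, *Hc*, *Serping1*, *Clu*, *Cr1l*, *C3ar1*) and, per member, the 2 genes outside the family with a mean of at least 1 CPM that had the highest correlation; *Alb*, *Adipoq*, *Irf1*, *Ciita*, *C8g*, *C4bp* and the C1q genes were added after their values had been seen. Endothelial genes and interferon gamma targets at an unadjusted p under 0.05 in edgeR, and the fibrinogen chains, were also named by their values. *Epcam* and *Krt20* were named as examples of their list, *Dnmt3a* as the deleted gene, and Gm20547 and Gm16083 for shared windows. The members and lists were chosen with earlier results of these data known. Replicates are separate mice, per the series' design. One listed complement gene is counted in its list but not reported by name here.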

Additional observations from a re-analysis of the deposited data

Results flagged for a closer look

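In groups of 4 tumors, 36 values were screened for a sample far from the rest of its group (Dixon's test), and 4 stood out where chance gives about 1.8. They were *Cfd* in Dnmt3a(+/-) BM replicate 1, at 0.798 CPM against at most 0.108 in the other 3 tumors with that graft, and in Dnmt3a(+/-) BM replicate 2 the summed CPM of the macrophage list (611), of the B cell and plasma cell list (202) and of the NF-kB and acute phase list (1589).

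The graft difference in *C2* had opposite signs in BMT18 and BMT8. The interaction, tested after this had been seen, was 3.34 on the log2 scale, with an unadjusted p of 0.00233 from edgeR and an adjusted p of 1.00, so it did not pass the threshold, and the side of BMT8 rests on Dnmt3a(+/+) BM replicate 3 (85.3 CPM).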

How the results depend on the processing

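The tool moved the count of calls most: edgeR called 0 genes (1744 at an unadjusted p under 0.05) and 0 members, also under the other scalings, without the filter, by the adjusted p alone and with each tumor left out, while DESeq2 called 300 genes and 1 member (*Cfi*), and with each tumor left out 63 to 697 genes and 1 member each time (231, 63 and 441 genes without Dnmt3a(+/+) BM replicates 1 to 3, and 697, 171, 201 and 259 without Dnmt3a(+/-) BM replicates 1 to 4). The cause was not tested. With each tumor left out, *C3* ranged from -0.20 to 0.91 in edgeR and *C4b* from -0.19 to 0.9965, and both turned negative without Dnmt3a(+/-) BM replicate 2 (in DESeq2 both -0.20). *C2* turned to 0.49 in BMT18 alone, and to 0.053 in edgeR and 0.068 in DESeq2 without Dnmt3a(+/+) BM replicate 3; its lowest value with a tumor left out was -1.54. The level of *Cd55* per kilobase was 39.1 by its longest transcript and 25.2 by the exon union. Of the recomputed log2 fold changes of the tested members, 132 kept their direction and side of the threshold. Another 7 turned direction (*C3*, *C4b* and *C2*), and 8, all of *Cfi* in DESeq2, passed the threshold. Replicate numbers did not pair the tumors throughout. Correlations of deviations were 0.57, 0.07 and -0.04 for numbers 1 to 3. Replicate 1 of each graft was the pair of tumors most alike (rank correlation of counts 0.984). With the replicate block, edgeR called 0 genes and 0 members, and *Cfi* was at 2.27.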
